A study of Mus musculus with 99 samples.

Results

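The interferon-stimulated genes described here are 45 genes taken by symbol from the 35870 genes of the deposited count table, and all 45 symbols were found there. The libraries were polyA RNA-seq of 3 tissues, gastrocnemius muscle, quadriceps muscle and whole spinal cord, from PBS-perfused male wild-type C57BL/6 mice. Each tissue had the same 3 groups: sedentary mice aged 10 months, sedentary mice aged 18 months, and mice aged 18 months that had exercised. Gastrocnemius and cord had 10, 10 and 13 libraries in that order, and quadriceps had 10, 9 and 12, or 97 libraries in all. Strain, sex and genotype were shared by every group, so no group carried a transgene or a deletion. There was no exercised group at 10 months, and the labels do not say what the exercise was or how long it lasted. Libraries are named here by the number in their title (6.1, or SC_10.4 with the tissue prefix), and the labels do not say whether it marks an animal, so p-values measure the spread between these libraries.

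Interferons are secreted proteins that cells release when they sense foreign or misplaced nucleic acid. Type I interferons bind a shared receptor and activate the kinases JAK1 and TYK2, which switch on a complex that holds STAT2 and IRF9 and binds a DNA element called the interferon-stimulated response element (ISRE) in front of target genes. Interferon gamma works through a different element, the gamma-activated site (GAS). The induced genes include sensors of viral RNA, the transcription factors of the pathway itself, enzymes that degrade or block RNA, GTPases, membrane proteins that trap virus particles, and chemokines. In brain and spinal cord, microglia, astrocytes and endothelium can all express such genes, and in muscle both the fibres and the cells between them can.

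The motif letters of the ISRE core, GAAANNGAAA read on either strand, were searched in the 250 bases before the RefSeq start of each gene (build GRCm38.p6). Of the 45 genes, 34 had an entry, and 14 of these (41.2%) held the motif, against 936 of the 27025 genes searched (3.46%). The GAS core TTCNNNGAA was in 7 of the 34 (20.6%) and in 2197 of the 27025 genes (8.13%), and 3 of the 34 held both. A match is a description of letters and not a binding site. The stretches below surround the ISRE cores of 8 genes: Cxcl10, Oas1a, Bst2 and Igtp, which were called higher in old cord; Rsad2, whose call there rests on 1 library; Ifit1 and Ifit3, neighbours on chromosome 19; and Isg15, which passed the filter on low counts in no tissue. Capitals mark the motif matches, 5′ to 3′ on the gene's strand.
Cxcl10, chr5:92349068-92349127, minus strand: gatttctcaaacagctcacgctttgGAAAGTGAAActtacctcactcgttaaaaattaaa
Oas1a, chr5:120907526-120907570, minus strand: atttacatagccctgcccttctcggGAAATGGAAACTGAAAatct
Bst2, chr8:71537562-71537627, minus strand: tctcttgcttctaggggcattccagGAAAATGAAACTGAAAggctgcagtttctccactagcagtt
Igtp, chr11:58199497-58199555, plus strand: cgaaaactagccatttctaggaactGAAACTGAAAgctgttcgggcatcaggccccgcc
Rsad2, chr12:26456538-26456597, minus strand: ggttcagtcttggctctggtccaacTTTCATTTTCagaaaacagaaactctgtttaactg
Ifit1, chr19:34640760-34640838, plus strand: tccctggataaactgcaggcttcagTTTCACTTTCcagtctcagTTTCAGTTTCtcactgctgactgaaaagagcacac
Ifit3, chr19:34583348-34583441, plus strand: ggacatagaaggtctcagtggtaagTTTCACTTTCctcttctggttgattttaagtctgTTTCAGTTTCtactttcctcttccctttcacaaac
Isg15, chr4:156200850-156200921, minus strand: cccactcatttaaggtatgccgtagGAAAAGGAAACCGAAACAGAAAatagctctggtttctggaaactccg
The element stood in both orientations among the 8: as GAAANNGAAA in Cxcl10, Oas1a, Bst2, Igtp and Isg15, and as its reverse complement in Rsad2, Ifit1 and Ifit3. Oas1a and Bst2 each carried 2 overlapping matches, and Isg15 carried 3.

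Library totals ran from 29063006 to 62769274 counts, with a median of 38711167. Tissue labels were borne out by markers: genes of skeletal muscle summed to between 78520 and 169513 CPM (counts scaled to a common library size) in the muscles and at most 701 CPM in cord, while cord genes summed to at least 20354 CPM in cord and at most 64.5 CPM in the muscles. Of the 45 genes, 44 passed the filter on low counts in gastrocnemius and in cord and 43 in quadriceps. Isg15, a ubiquitin-like protein that is attached to other proteins after interferon, passed in none, and Oas3 did not pass in quadriceps. The library numbered 6.1 of the sedentary 18-month group stood apart in every tissue by its red cell transcripts, which summed to 1224 CPM in gastrocnemius (the other 9 libraries of its group reached 96.0), 999 in quadriceps (others to 200) and 11091 in cord (others to 950). Results that rest on it are given with and without it.

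Levels spanned a wide range within each tissue. Per transcript length (TPM, the authors' abundance scale, which can be compared between genes), Ifitm3 was the most abundant member in all 9 groups, with median TPM from 69.6 to 81.8 in the muscles and from 85.9 to 113 in cord; its protein blocks the entry of enveloped viruses at membranes. Ifi27, a small hydrophobic protein of mitochondria and nuclear envelope, followed in cord with medians of 81.1 to 104 TPM, and Lgals3bp, a secreted glycoprotein that binds galectins, with 45.8 to 63.2 TPM. In the muscles, Ifi27 stood at 37.8 to 43.4 TPM, and Ifi27l2a, its relative, at 18.2 to 22.2 TPM in gastrocnemius and 30.8 to 37.8 TPM in quadriceps. At the low end, Oas3 had medians of 0.0595 to 0.108 TPM in the muscles and 0.215 to 0.3005 TPM in cord.

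Isg15 was at or near the floor. It had no count in any quadriceps library of either sedentary group, and its median was 0 CPM in all 6 muscle groups. In cord its median was 0.124 CPM at 10 months, 0.14 CPM in sedentary mice at 18 months and 0.106 CPM in exercised mice at 18 months. Near-identical copies of the gene exist, and how reads that fit several places were counted is not given in the sources used here, so these values may not be the level of its mRNA. The same holds for Ifit3 against Ifit3b, whose median in cord at 10 months was 8.58 CPM beside 17.1 for Ifit3, and for Oas1a against Oas1g (0.18 CPM beside 1.11).

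To follow the genes together in each library, a member level was formed: the mean over the tested members of log2 CPM minus the tissue's median. In gastrocnemius it averaged -0.14 ± 0.17 (SD, n = 10) in sedentary mice at 10 months, 0.06 ± 0.30 (n = 10) in sedentary mice at 18 months and 0.08 ± 0.19 (n = 13) in exercised mice. In quadriceps the same groups stood at -0.15 ± 0.13 (n = 10), 0.04 ± 0.19 (n = 9) and 0.12 ± 0.18 (n = 12). In cord they stood at -0.20 ± 0.24 (n = 10), 0.18 ± 0.22 (n = 10) and 0.06 ± 0.19 (n = 13). The 10-month group had the lowest mean in each tissue, and the groups overlapped in each.

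**Figure D1:**
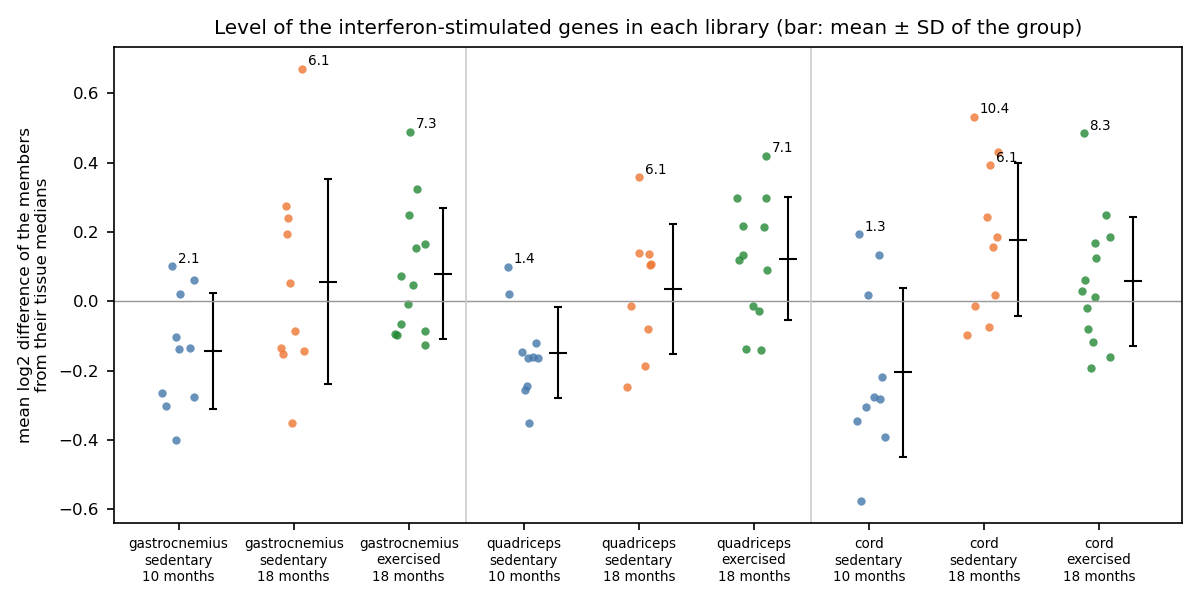
Member level (mean over tested members of log2 CPM minus the tissue's median, in log2 units) of every library, by tissue and group, with the group mean and SD drawn beside the points and the highest library of each group and library 6.1 named. Library 6.1 reached 0.67 in gastrocnemius, the highest of all gastrocnemius libraries.

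Single libraries stood out by this measure. In gastrocnemius, sedentary 18-month library 6.1 had a level of 0.67 and was the highest of its group for 33 of 44 members, and exercised library 7.3 had 0.49 and was the highest for 21. In quadriceps, library 6.1 had 0.36 and the top value for 21 of 43 members, and exercised library 7.1 had 0.42 and the top value for 16. In cord, sedentary 18-month library SC_10.4 had 0.53, with the top value for 18 of 44 members, exercised library 8.3 had 0.49 with the top value for 29, and library 6.1 had 0.39 with the top value for 9. Cord libraries SC_10.4 and 8.3 were above the tissue median for all 44 members. At 10 months, library 1.3 in cord (0.19) and library 1.4 in quadriceps (0.10) had the top value for 17 and 19 members.

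**Figure D2:**
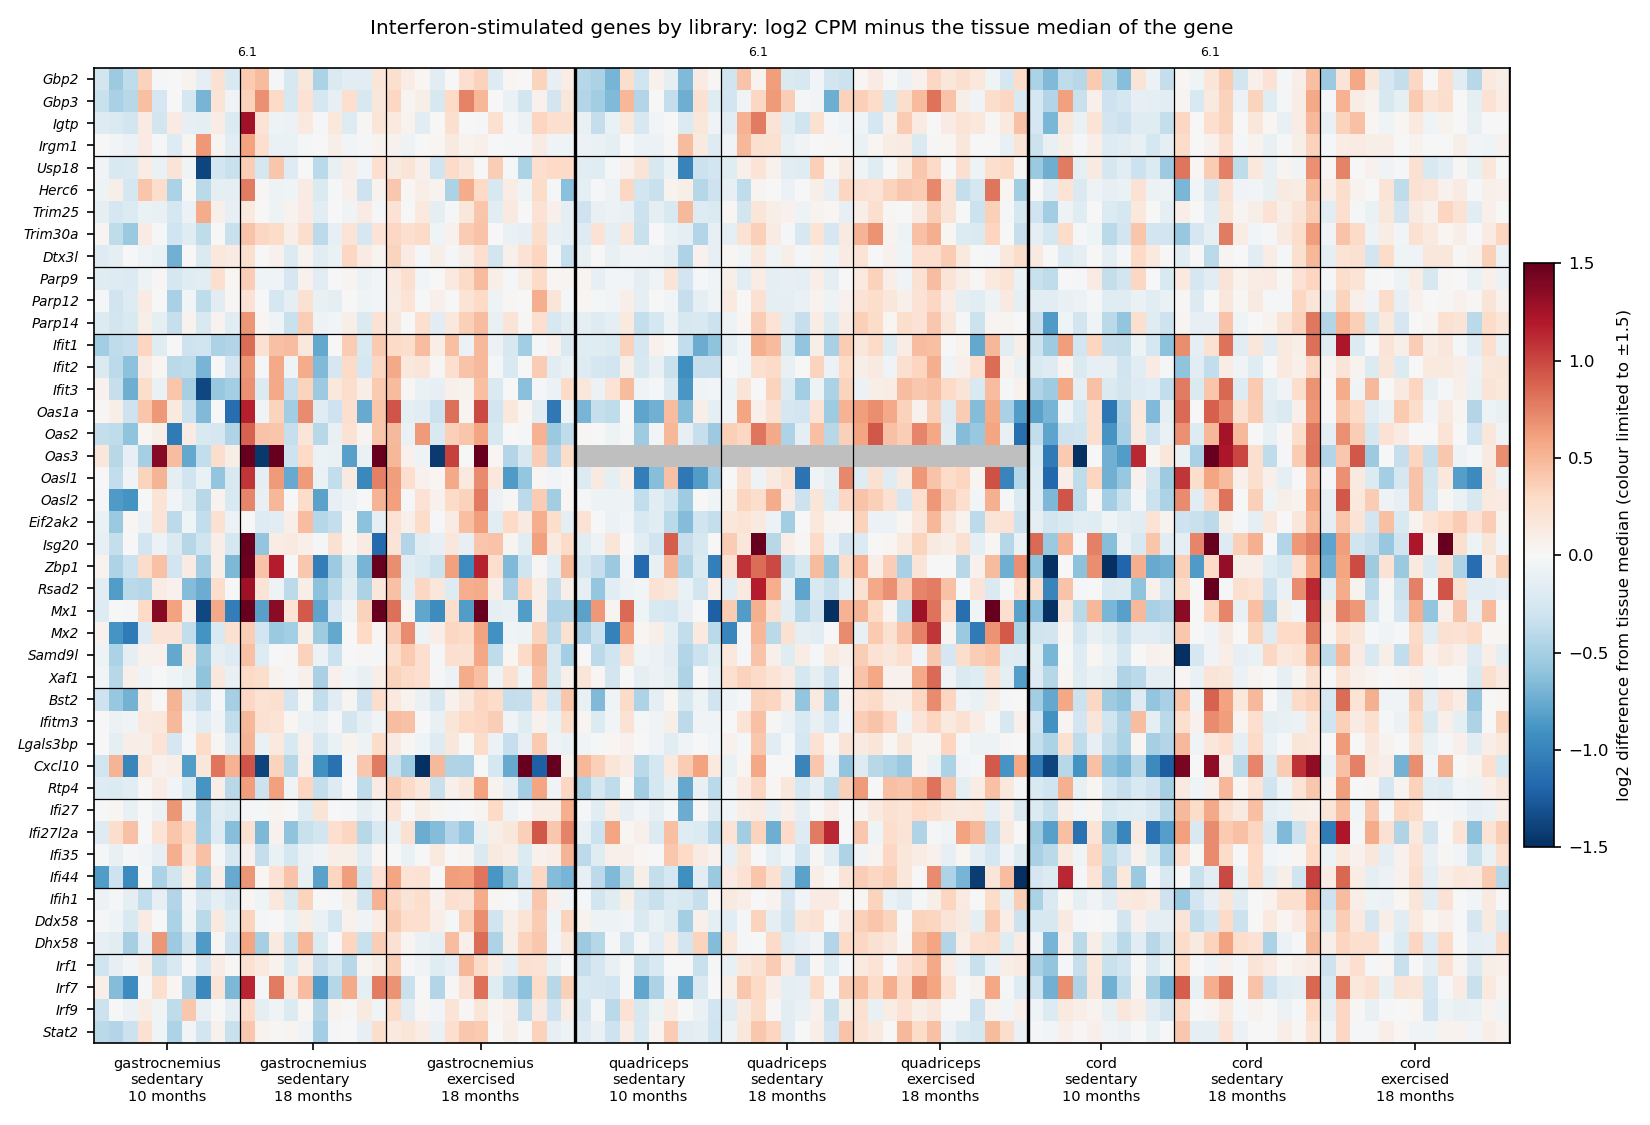
Log2 CPM minus the tissue's median for the 44 members tested in at least 1 tissue (vertical, grouped by role) in all 97 libraries (horizontal, ordered by tissue and group), with the colour scale limited to ±1.5 and grey for a gene not tested in a tissue. Library 6.1 is marked in each tissue; single columns such as gastrocnemius 6.1 and cord 8.3 are high across most members.

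In spinal cord, between 10 and 18 months in sedentary mice, 18 of 44 members were higher and none lower at an adjusted p under 0.05 (edgeR's quasi-likelihood test, Benjamini-Hochberg over all genes of the tissue; called, in what follows). With only both compared groups in the fit, the count was 7. Over all 18956 genes tested in cord, 5.35% were called in either direction and 2.82% higher. All 44 members had fitted log2 fold changes above 0, with a median of 0.37 against 0.01 over all genes, and 32 had an unadjusted p under 0.05, where 26.3% of all genes did. By role, those called were 6 of 16 antiviral effectors (Oas1a, Oas2, Oasl1, Mx2, Rsad2, Xaf1), 1 of 3 RNA sensors (Dhx58), 1 of 4 transcription factors (Irf1) and 1 of 5 tested genes of the ISG15 system and its ubiquitin ligases (Trim25). They also included 2 of 3 PARPs (Parp12, Parp14), 2 of 4 GTPases (Igtp, Irgm1), 3 of 5 membrane or secreted proteins (Bst2, Lgals3bp, Cxcl10) and 2 of 4 others (Ifi27, Ifi35). In bulk tissue, more cells of a type and more RNA per cell cannot be told apart.

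Cxcl10, a chemokine that draws activated T cells, had the largest called change. In cord at 10 months it ran from 0.448 CPM through a median of 0.701 to 1.72 in library 2.1, where the next library had 0.925. In sedentary mice at 18 months it ran from 0.93 through 1.87 to 3.44 CPM, and in exercised mice from 0.74 through 1.34 to 2.14 CPM. All 10 sedentary old libraries were above the 10-month median and 5 above every 10-month library, so the groups overlapped through library 2.1. The log2 fold change with age was 1.397 ± 0.24 (SE; adjusted p = 0.000634), and it stayed between 1.29 and 1.59 when any 1 cord library was left out. Cxcl10 shares 133 of its exon bases (5.91%) with Art3 on the opposite strand, and reads there cannot be assigned to a strand with this library kit.

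The oligoadenylate synthetases, which make a second messenger that activates an RNase, were called in part. Oas1a ran from 0.651 through 1.11 to 1.72 CPM at 10 months and from 1.23 through 1.78 to 2.71 CPM in sedentary mice at 18 months (log2 fold change 0.74 ± 0.16, adjusted p = 0.00725). Oas2 ran from 1.52 through 2.302 to 3.38 CPM and from 2.49 through 3.74 to 6.86 CPM (0.73 ± 0.16, adjusted p = 0.00709). All 10 old libraries were above the 10-month median for each of the pair, and 5 and 6 were above every 10-month library. Oasl1, a relative without synthetase activity, gave 0.67 ± 0.19 (adjusted p = 0.0373). Oas3 did not pass (0.83 ± 0.32, adjusted p = 0.104).

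Mx2 belongs to a family of dynamin-like GTPases that restrict viruses, and whether its protein is functional in these mice was not tested. It had the narrowest spread of these: 2.03 through 2.24 to 2.62 CPM at 10 months and 2.25 through 2.996 to 4.41 CPM in sedentary mice at 18 months. Its log2 fold change was 0.43 ± 0.09 (adjusted p = 0.00478), with 10 of 10 old libraries above the young median and 6 above every young library. Mx1, whose protein is defective in C57BL/6 mice, gave 0.77 ± 0.24 and did not pass (adjusted p = 0.0535). Among the interferon-inducible GTPases that act on vacuoles of intracellular microbes, Igtp gave 0.35 ± 0.09 (adjusted p = 0.0215) and Irgm1 0.21 ± 0.05 (adjusted p = 0.0225).

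Of the membrane and secreted proteins, Bst2 (tetherin, which holds budding virus on the cell surface) ran from 4.23 through 5.07 to 10.8 CPM at 10 months and from 6.57 through 9.01 to 13.4 CPM at 18 months in sedentary mice (log2 fold change 0.59 ± 0.16, adjusted p = 0.0308). Young libraries 1.3 (10.8 CPM) and 2.1 (8.94 CPM) lay within the old range, and the other 8 lay below every old library. Lgals3bp ran from 31.3 through 34.3 to 51.8 CPM and from 40.5 through 49.9 to 62.0 CPM (0.40 ± 0.09, adjusted p = 0.0105). Ifi27 ran from 32.2 through 37.7 to 45.9 CPM and from 38.7 through 49.2 to 63.7 CPM (0.38 ± 0.09, adjusted p = 0.00894), and all 10 old libraries exceeded the young median for each of these 3 genes.

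The remaining called members had log2 fold changes between 0.19 and 0.44: Parp14, Dhx58, Ifi35, Irf1, Trim25, Xaf1 and Parp12, with adjusted p from 0.0141 (Xaf1, which promotes apoptosis) to 0.037 (Trim25, a ubiquitin ligase of the RIG-I pathway). Ifi35 shares 16.8% of its exon bases with a gene on the opposite strand. Irf7, the factor that amplifies type I interferon, ran from 3.59 through 4.46 to 9.67 CPM at 10 months and from 4.78 through 6.996 to 11.2 CPM at 18 months. All 10 old libraries were above its young median, but 9.67 CPM in young library 1.3 lay inside the old range, and its 0.57 ± 0.18 did not pass (adjusted p = 0.0505). The IFIT genes, whose proteins bind viral RNA that lacks host cap marks, did not pass either: the estimates were 0.42 for Ifit3 (adjusted p = 0.0693), 0.44 for Ifit1 and 0.07 for Ifit2.

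Several further members had estimates above 0 in old cord and did not pass the test. Ifit3 ran from 13.6 through 17.1 to 29.4 CPM at 10 months and from 16.9 through 24.8 to 35.7 CPM in sedentary mice at 18 months. Oasl2, a ubiquitin-like relative of the synthetases, ran from 8.13 through 10.37 to 25.1 CPM and from 11.6 through 15.1 to 22.9 CPM, and all 10 old libraries exceeded the young median while none exceeded young library 1.3 (0.43 ± 0.17, adjusted p = 0.104). Usp18, the protease that removes ISG15 from proteins, ran from 1.76 through 2.53 to 5.15 CPM and from 2.28 through 3.2 to 5.21 CPM (0.42 ± 0.16, adjusted p = 0.0958). Library 1.3 was the highest young library for Ifit3, Oasl2 and Usp18. Gbp2, a guanylate-binding GTPase, ran from 5.54 through 6.69 to 11.5 CPM and from 7.22 through 9.31 to 12.02 CPM (0.37 ± 0.13, adjusted p = 0.0826). Ifi27l2a ran from 0.953 through 1.27 to 2.93 CPM and from 1.33 through 2.61 to 3.51 CPM (0.62 ± 0.24, adjusted p = 0.0986), with 10 of 10 old libraries above the young median for each of Gbp2 and Ifi27l2a.

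**Figure D3:**
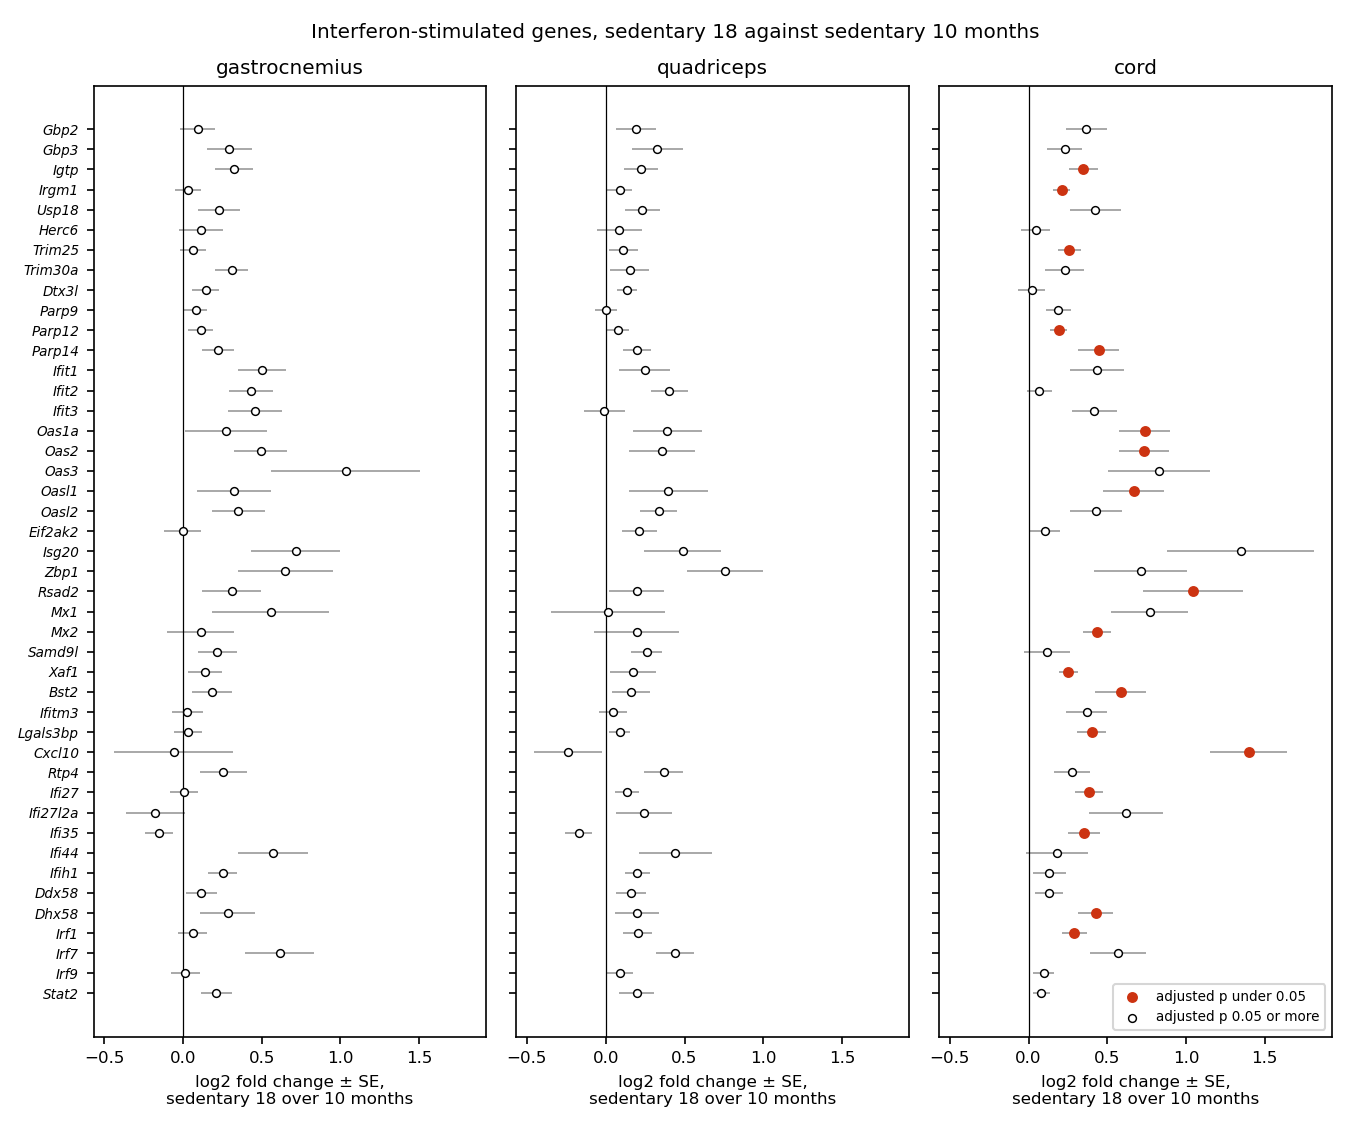
Fitted log2 fold change with its SE, sedentary 18 months over sedentary 10 months, for each tested member in gastrocnemius, quadriceps and cord; filled points are called at an adjusted p under 0.05. All 44 cord estimates lie above 0 and 18 are filled, while no point is filled in either muscle.

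The age estimates of Rsad2 and Isg20 in cord depended largely on 1 library. Rsad2 encodes viperin, an enzyme that makes a chain-terminating nucleotide, and ran from 2.40 through 4.45 to 6.47 CPM at 10 months; at 18 months in sedentary mice it ran from 3.84 through 5.62 to 39.96 CPM. The 39.96 CPM was library 6.1, the next highest was 10.6 CPM in library SC_10.4, and library 6.1 alone held 42.8% of the group's sum. By edgeR, the log2 fold change of 1.04 ± 0.32 (adjusted p = 0.0459) became 0.42 (adjusted p = 0.214) without library 6.1. By DESeq2 with all libraries the estimate was 0.39 (adjusted p = 0.134). The call was also lost by limma voom, with no filter and with only both compared groups. It was lost as well in fits that left out other libraries. Isg20, a 3′ to 5′ exonuclease, ran from 1.81 through 3.42 to 45.1 CPM in the same old group, again with library 6.1 at the top, the next at 4.21 CPM and 61.9% of the sum in that library. Its log2 fold change of 1.35 ± 0.47 (adjusted p = 0.0743) became 0.15 (adjusted p = 0.771) without it. Library 6.1 also had the highest red cell sum, 11091 CPM, and the part of red cell RNA in these values was not tested.

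Across all members and groups, 8 of 393 pairs of a member and a group had 1 library with at least 25% of the group's CPM sum. Library 6.1 was that library in 6 of the 8: Isg20 in sedentary 18-month mice in all 3 tissues, Oas3 in gastrocnemius and cord of that group, and Rsad2 in cord. The other pairs were Oas3 at 10 months, in gastrocnemius library 2.1 and in cord library 3.1. In gastrocnemius Isg20 ran from 0.413 through 1.06 to 5.63 CPM in sedentary mice at 18 months (39.8% of the sum in library 6.1), and in quadriceps from 0.882 through 1.29 to 5.46 CPM (35.5%). Leaving that library out moved the log2 fold change of Isg20 with age from 0.72 to 0.13 in gastrocnemius and from 0.49 to 0.01 in quadriceps.

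**Figure D4:**
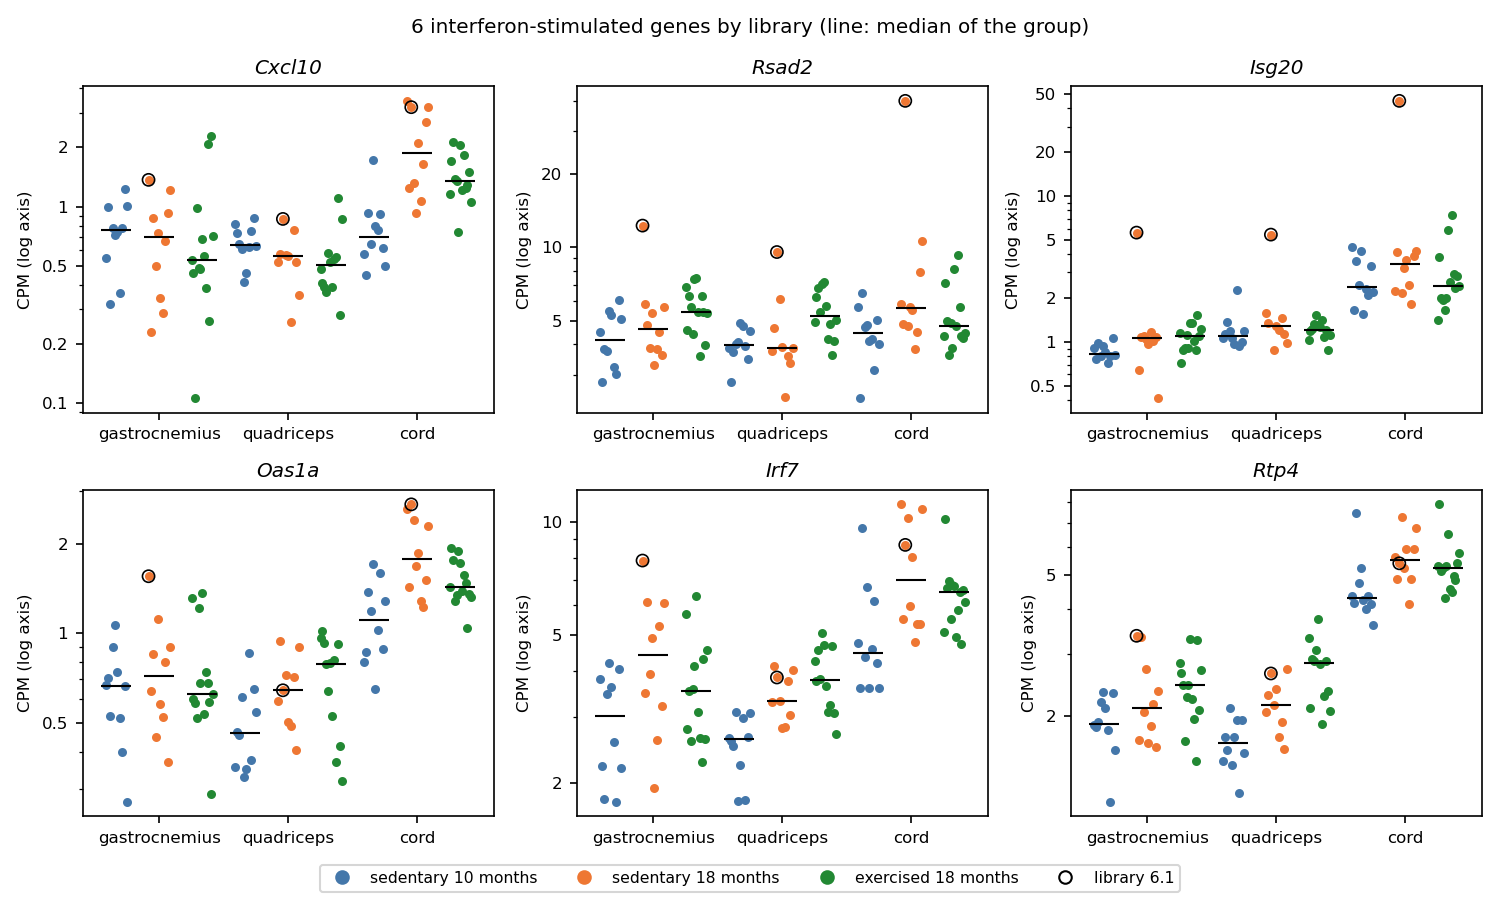
CPM on a log axis of Cxcl10, Rsad2, Isg20, Oas1a, Irf7 and Rtp4 in every library, by tissue and group, with library 6.1 ringed. Rsad2 at 39.96 and Isg20 at 45.1 CPM in cord are single points of library 6.1, while all 10 sedentary 18-month cord libraries lie above the 10-month median for Oas1a and Cxcl10.

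For the list as a whole in cord, the count of 18 with age was 14 without library 6.1. In that fit, 31 members had an unadjusted p under 0.05 by edgeR, and the median log2 fold change was 0.33. Over the fits that left out each cord library in turn, the count ran from 8 to 24 and the median from 0.33 to 0.41. It was 8 without 10-month library 2.3, 9 without 1.1 or 1.2, and 10 without 1.4, 2.2 or 3.3 at 10 months or without 6.2 or 6.4 of the sedentary 18-month group; it was 24 without 10-month library 2.1. Cxcl10, Oas1a, Oas2, Mx2, Lgals3bp, Ifi27 and Xaf1 were called in all 33 of these fits, and the other 11 in 16 (Rsad2) to 32 (Irgm1). Counts were 21 by DESeq2, 26 by limma voom with sample weights, 7 in a fit of only both compared groups, 11 without the libraries that stand apart (5.2 and 6.1) and 10 with red cell transcripts as a covariate.

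**Figure D5:**
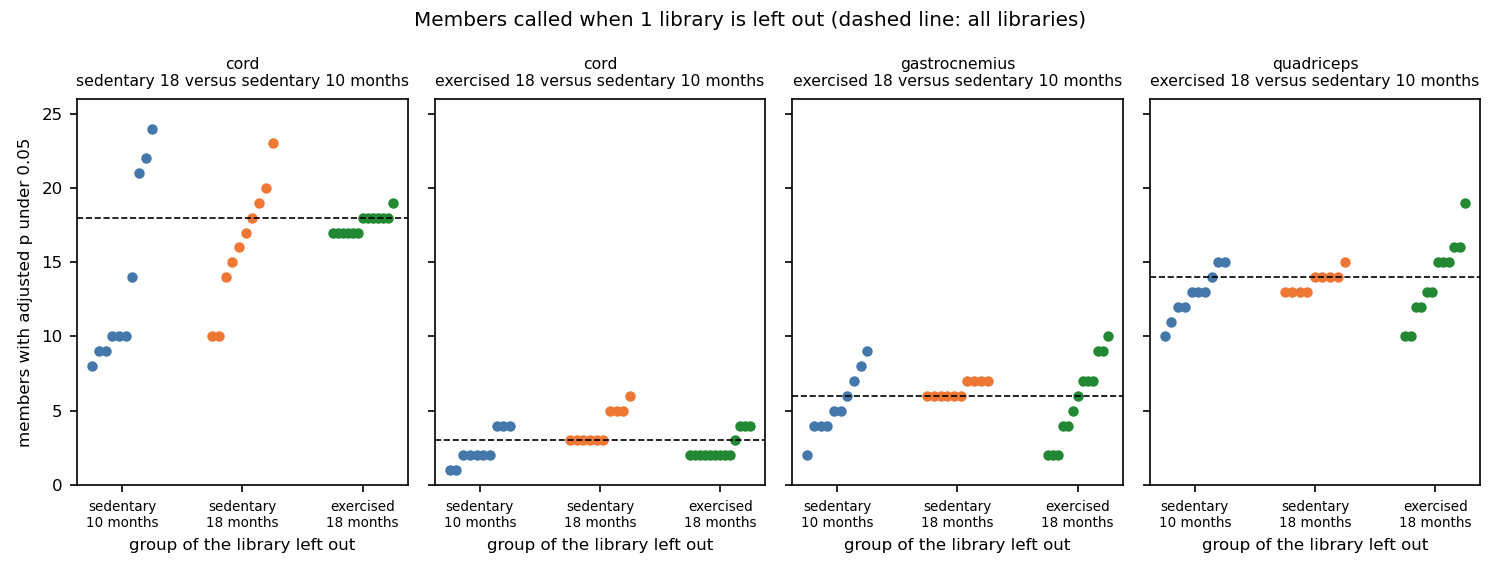
Number of members called (adjusted p under 0.05) when each library is left out in turn, for age in cord and for exercised 18 months against sedentary 10 months in cord, gastrocnemius and quadriceps; dashed lines give the count with all libraries (18, 3, 6 and 14). The cord counts with age run from 8 to 24 and the quadriceps counts from 10 to 19.

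The other genes of the pathway, from lists chosen with earlier results of these data known, moved in cord as follows. The 10 interferon genes listed had at most 4 counts in any cord library. Of 46 further interferon-induced genes tested, 12 were called higher with age and none lower, where 2.82% of all genes were called higher. The median log2 fold change of the 46 was 0.25. Those called included the immunoproteasome subunits Psmb9 (0.51) and Psmb8 (0.50), the nuclear body protein Sp110 (0.47) and Uba7 (0.41), which activates ISG15. Of 11 signal transducers, 3 were higher, Irf8 (0.52), Irf5 (0.41) and Nlrc5 (0.61). Of 7 negative regulators, Ptpn6 (0.44) was higher. None of 6 interferon receptors and none of 13 genes of nucleic acid sensing were called. By the same edgeR test, 1 and 3 of them had an unadjusted p under 0.05, where 26.3% of all genes did.

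Markers of other cells moved with age in cord too. Of 8 microglia and macrophage markers, 4 were called higher, where 2.82% of all genes were: Cd68 (0.89), Aif1 (0.50), Adgre1 (0.40) and Cx3cr1 (0.24). Their summed level ran from 225 to 388 CPM at 10 months, with a median of 232 and library 3.1 far above the next value of 240 CPM, from 249 to 305 CPM in sedentary mice at 18 months, and from 243 to 291 CPM in exercised mice. Every 18-month library was thus above 9 of the 10 young ones. Of 5 tested T and NK cell markers, Cd8a was called higher, and the summed level of the 7 listed ran from 0.917 to 2.55 CPM at 10 months, from 1.46 to 3.16 CPM in sedentary mice at 18 months and from 1.05 to 4.40 CPM in exercised mice. Red cell markers had a median log2 fold change of 1.65 and none of 5 was called. By the edgeR test, 5 had an unadjusted p under 0.05, where 26.3% of all genes did. The red cell sum ran from 223 to 1039 CPM at 10 months and from 146 to 950 CPM at 18 months outside library 6.1. The part of these cells in the members' differences was not tested.

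Exercised mice at 18 months were next set against sedentary mice of that age. In cord, no member was called by edgeR, DESeq2 or voom, and 0% of all genes were. The members' estimates were below 0 for 38 of 44 members, with a median of -0.10, and 6 had an unadjusted p under 0.05 (all lower), where 13.5% of all genes did; the count was 4 by DESeq2 and 3 by voom. Isg20, Rsad2, Cxcl10, Oasl1 and Oas2 had the smallest p. Without library 6.1, Isg20 moved from -1.24 to -0.04 and Rsad2 from -0.78 to -0.15, and Cxcl10 stayed between -0.61 and -0.42 over the fits that left out each library (-0.54 ± 0.21 with all, adjusted p = 0.368). Red cell markers had a median log2 fold change of -1.42 here, with 5 of 5 at an unadjusted p under 0.05 and none called. Because this contrast and the age contrast share the sedentary 18-month group, a library that is high there moves both.

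In cord, exercised mice at 18 months set against sedentary mice at 10 months gave 3 called members, all higher, where 1.51% of all genes were called and 0.981% higher. Age and exercise both differ in this contrast, which cannot tell them apart. Lgals3bp ran from 39.5 through 46.0 to 69.0 CPM in exercised cord (log2 fold change 0.36 ± 0.09, adjusted p = 0.0229), with 13 of 13 libraries above the young median. Xaf1 ran from 11.9 through 14.3 to 16.6 CPM, against 10.296 through 12.5 to 14.3 CPM at 10 months (0.25 ± 0.06, adjusted p = 0.0139). Parp12, a mono-ADP-ribosyltransferase, ran from 16.3 through 18.4 to 22.3 CPM against 15.6 through 16.1 to 17.2 CPM (0.20 ± 0.05, adjusted p = 0.0428), and 10 of 13 exercised libraries were above every young one. Estimates were above 0 for 43 of 44 members, with a median of 0.24. Xaf1 was called in all 33 fits that left out a library, Lgals3bp in 31 and Parp12 in 15. The count was 1 without young library 1.2 or 2.3, 5 without sedentary 18-month library 6.1, 7.4 or SC_10.4 and 6 without 5.2, and it was 6 by DESeq2 and 22 by voom.

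In gastrocnemius, no member was called with age in sedentary mice by edgeR (0 by DESeq2 and 1 by voom, Ifit1), where 0.153% of all genes were called. Estimates were above 0 for 40 of 44 members with a median of 0.22, against -0.02 over all genes, and 16 had an unadjusted p under 0.05, all higher, where 9.84% of all genes did. The smallest p belonged to Ifit1, which ran from 1.44 through 1.65 to 2.63 CPM at 10 months and from 1.21 through 2.60 to 3.77 CPM at 18 months (0.50 ± 0.15, adjusted p = 0.191). It was followed by Ifit2 (0.43), Trim30a (0.31), a ubiquitin ligase that dampens signalling, Oas2 (0.49) and Irf7 (0.61). Library 6.1 held the top value for Ifit1, Ifit2, Trim30a, Oas2 and Irf7 in that group. Without it, 8 members had an unadjusted p under 0.05 and the median was 0.14.

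Exercise at 18 months gave no called member in gastrocnemius by edgeR (0 by DESeq2 and 1 by voom, Eif2ak2), where 0.106% of all genes were called. Eif2ak2, the kinase PKR that stops translation on double-stranded RNA, ran from 2.64 through 3.68 to 5.64 CPM in sedentary mice and from 3.66 through 4.76 to 6.35 CPM in exercised mice (0.33 ± 0.11, adjusted p = 0.171). Ddx58, Parp9 and Parp12 were higher and Mx1 lower at an unadjusted p under 0.05, which makes 5 of 44, where 13.6% of all genes passed. The median over members was 0.04. Without the libraries that stand apart (2.2, 3.1 and 6.1), Parp9 was called (0.21).

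The contrast of exercised mice at 18 months with sedentary mice at 10 months differs in both age and exercise. It gave 6 called members in gastrocnemius, all higher, where 6.73% of all genes were called and 3.43% higher. They include both classical cytosolic RNA sensors: Ifih1 (MDA5) ran from 3.29 through 4.08 to 4.46 CPM at 10 months and from 4.17 through 5.17 to 6.63 CPM in exercised mice (0.37 ± 0.09, adjusted p = 0.0103), and Ddx58 (RIG-I) from 3.03 through 4.05 to 4.71 and from 3.45 through 5.05 to 6.94 CPM (0.33 ± 0.09, adjusted p = 0.0247). For Ifih1, 13 of 13 exercised libraries were above the young median and 11 above every young library; for Ddx58 these were 12 and 8. Ifit2 (0.44), Stat2 (0.33), a part of the ISRE-binding complex, Parp12 (0.27) and Parp9 (0.23) made up the rest. Ifih1 and Ddx58 were called in all 33 fits that left out a library, and Ifit2 in 20. Without the libraries that stand apart, 5 members were called, of which Ifih1 and Parp9 were among the 6 and Ifi27, Igtp and Trim25 were not. The count was 2 without young library 1.2 or exercised library 7.1, 7.3 or 9.1, and 10 without exercised library Gas_10.1, and it was 1 (Ifih1) with red cell transcripts as a covariate and 3 in a fit of only both compared groups.

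In quadriceps, age in sedentary mice gave no called member by edgeR (1 by DESeq2, Irf7, and 3 by voom, Ifit2, Irf7 and Trim25), where 0.352% of all genes were called. Estimates were above 0 for 40 of 43 members with a median of 0.20, and 12 had an unadjusted p under 0.05, all higher, where 12.2% of all genes did. Irf7 ran from 1.79 through 2.62 to 3.099 CPM at 10 months and from 2.81 through 3.33 to 4.11 CPM at 18 months (0.44 ± 0.12, adjusted p = 0.112). Ifit2 (0.40), Zbp1 (0.76), a sensor of Z-form nucleic acid, Rtp4 (0.37) and Oasl2 (0.34) followed. Without library 6.1, 8 members had an unadjusted p under 0.05 and the median was 0.14.

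Exercise at 18 months gave no called member in quadriceps by edgeR (0 by DESeq2 and 1 by voom, Parp9), where 0.757% of all genes were called. Parp9, which acts with Dtx3l on interferon signalling, ran from 6.98 through 7.27 to 8.49 CPM in sedentary mice and from 7.35 through 8.74 to 10.9 CPM in exercised mice (0.20 ± 0.07, adjusted p = 0.166). Parp9 and Rtp4 were higher and Isg20 lower at an unadjusted p under 0.05, or 3 of 43, where 11.4% of all genes passed. For Isg20 the estimate of -0.50 became -0.02 without library 6.1. Among the pathway's other genes, Parp10 (0.38) and Rnf125 (0.47), a ubiquitin ligase that lowers RIG-I, were called higher.

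The largest count in muscle was in quadriceps, for exercised mice at 18 months against sedentary mice at 10 months: 14 of 43 members were called, all higher, where 11.1% of all genes were called and 5.76% higher. These groups differ in both age and exercise, which cannot be told apart in this contrast. The median over members was 0.28, against -0.01 over all genes. Rtp4, a chaperone of receptors that also binds viral RNA, ran from 1.22 through 1.68 to 2.11 CPM at 10 months and from 1.90 through 2.83 to 3.75 CPM in exercised mice (0.68 ± 0.12, adjusted p = 0.000354). Of its exon bases, 296 (13.9%) are shared with another gene on the same strand, and how reads there were counted is not given. Irf7 rose from the young range given above to 2.71 through 3.77 to 5.05 CPM (0.61 ± 0.11, adjusted p = 0.000691). For each of Rtp4 and Irf7, 12 of 12 exercised libraries were above the young median and 10 above every young library.

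Ifit2 in quadriceps ran from 1.41 through 2.22 to 2.87 CPM at 10 months and from 2.52 through 2.93 to 4.87 CPM in exercised mice (0.51 ± 0.11, adjusted p = 0.00257). Dtx3l, a ubiquitin ligase, ran from 8.59 through 11.1 to 12.4 CPM and from 11.3 through 13.2 to 15.4 CPM (0.25 ± 0.06, adjusted p = 0.00547). It shares 458 exon bases with Parp9 on the opposite strand, so counts of the pair are not fully separate. Oasl2, Samd9l, Ddx58, Ifih1, Parp14, Irf1, Bst2, Gbp3, Ifi27 and Parp9 were also called, with log2 fold changes of 0.21 to 0.48. Of the 14, 10 were called in all 31 fits that left out a library; Gbp3 was called in 21, Irf1 in 23, Parp9 in 26 and Bst2 in 14. The count ran from 10 (without young library 1.2 or exercised library 6.3 or 7.1) to 19 (without exercised library Quad_10.3).

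Other pathway genes in the muscles moved in both directions in that contrast. In quadriceps, 5 of 44 further interferon-induced genes were called higher, where 5.76% of all genes were, among them Tnfsf10 (0.48), the death ligand TRAIL, and Parp10 (0.39), and in gastrocnemius 8 of 45, where 3.43% of all genes were, with Tnfsf10 at 0.49 and Sp100 at 0.34. The interferon gamma receptor chain Ifngr2 was lower in both (-0.30 and -0.25), and in quadriceps Jak2 (-0.26) and Irf2 (-0.29) were lower while Adar (0.36) and Tlr3 (0.32) were higher. Trex1, a DNA exonuclease, was lower in gastrocnemius (-0.42). Of the cell markers, Jchain of plasma cells was higher in quadriceps (1.41) and gastrocnemius (1.52), and Cd79a (0.94) and Ms4a1 (1.39) of B cells in quadriceps; the summed B and plasma cell level in quadriceps ran from 0.585 to 4.17 CPM at 10 months and from 1.91 to 8.57 CPM in exercised mice. Cd3e of T cells, the 1 marker of T and NK cells tested there, was higher in gastrocnemius (1.32) and not called in quadriceps (0.37). Lep, the adipocyte hormone leptin, was lower in gastrocnemius (-2.42) and in quadriceps (-1.72), while the other adipocyte markers, Adipoq and Plin1, were not called. Cdh5 of endothelium was higher in quadriceps (0.38), and Pecam1 of endothelium was higher in quadriceps (0.36) and gastrocnemius (0.28), with summed endothelial levels of 111 to 196 CPM and 161 to 289 CPM in quadriceps. The part of these cells in the members' values was not tested.

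The age difference was then compared between tissues. The muscles were compared in a fit over their own libraries, and cord with the muscles in a fit over all 97 libraries. Between gastrocnemius and quadriceps the age difference gave no called member and 0% of all genes in edgeR. Of 44 members, 1 had an unadjusted p under 0.05, where 1.5% of all genes did, and DESeq2 and voom called none. The exercise difference gave the same counts (0% of all genes called, 1 of 44 members at an unadjusted p under 0.05 and 2.31% of all genes). Between cord and the mean of the muscles, 2 of 44 members had an age difference that was called, both higher in cord, where 2.61% of all genes were called. Cxcl10 differed by 1.53 ± 0.35 (adjusted p = 0.00905), from age estimates of 1.397 in cord, -0.06 in gastrocnemius and -0.24 in quadriceps, and Ifi35, which binds NMI, by 0.49 ± 0.11 (adjusted p = 0.0072), from 0.35, -0.15 and -0.17. Without the libraries that stand apart, Cxcl10 was called there and Ifi35 was not. For the exercise difference between cord and muscles no member was called by edgeR, where 0.887% of all genes were, and 7 of 44, all lower in cord, had an unadjusted p under 0.05, where 16% of all genes did; the smallest p belonged to Rsad2 (-0.92 ± 0.27, adjusted p = 0.0759). DESeq2 called 2 there (Rsad2 and Parp9) and voom 1 (Parp9). The sedentary 18-month cord group of this contrast holds library 6.1, whose Rsad2 value of 39.96 CPM lay far from its group. Within cord, the exercise estimate of Rsad2 shrank without that library, as given above. The fit across tissues was not repeated without library 6.1 alone, so the part of that library in the Rsad2 difference was not tested.

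Levels at 10 months also differed between tissues. Between the muscles, Ifi27l2a was lower in gastrocnemius (5.301 through 8.93 to 11.2 CPM) than in quadriceps (9.70 through 11.6 to 19.4 CPM), a log2 difference of -0.65 ± 0.19 (adjusted p = 0.0132), and Lgals3bp by -0.23 ± 0.08 (adjusted p = 0.0466); 10.9% of all genes differed and 4.17% were lower. These 2 calls come from a fit without the title's number; the count was 9 with that number as a replicate block, 9 without the libraries that stand apart and 11 by voom, with both members among them, and with no filter on low counts Lgals3bp was lost. Against cord, 14 members were higher in cord and 22 lower, where 92.1% of all genes differed, 53.9% higher and 38.2% lower; the median was -0.35 for the members and 0.40 for all genes. These log2 differences come from 1 scaling over 3 tissues of unlike makeup, and CPM values scaled within a tissue are not comparable across tissues. The deposited TPM give another split, compared after the data had been seen: by median TPM, all 14 of the members fitted as higher were above both muscles in cord, while of the 22 fitted as lower 17 were above both muscles, 2 between them and 3 below both. The direction of most of the 22 therefore depends on the scaling. TPM are shares of a library's total too, so the unlike makeup of the tissues bears on them as well. How many of all genes had a median TPM above both muscles was not counted, so this split has no share over all genes beside it. The largest fitted differences among those higher were Ifit2 (1.73), Ifit3 (1.47), Mx2 (1.45), Stat2 (1.37) and Herc6 (1.18), which shares 13.7% of its exon bases with another gene on the same strand. Those lower on both scales were Ifi27l2a (-3.87), Ifi35 (-2.03) and Igtp (-1.91). The median TPM of Ifi27l2a was 4.24 in cord, against 22.2 in gastrocnemius and 30.8 in quadriceps, and that of Ifit2 was 11.3, against 1.298 and 1.11. Dtx3l (TPM 4.78, against 5.32 and 4.66) and Parp14 (1.94, against 1.97 and 1.61) lay between the muscles.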

How the data were processed

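Libraries were made from polyA RNA of PBS-perfused, flash-frozen tissue with the TruSeq RNA v2 kit, which does not mark strand, per the labels' protocols. The authors deposited raw counts per gene for the libraries; alignment used STAR 2.5.2b and build GRCm38.p5, per the submitters' processing notes; no source used here names the counter. The authors also deposited TPM values, normalized by gene length and depth, with a gene length column per the file headers; these served only for levels. The labels list 99 samples; 2 quadriceps samples (sedentary 18 months 10.4 and exercised 10.2) are not analysed here. Replicates are libraries.

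Per tissue, genes were kept by filterByExpr (minimum count 10), scaled by TMM, and tested with edgeR 4.0.16 in R 4.3.3 (quasi-likelihood F test over all groups of the tissue, Benjamini-Hochberg over all genes, threshold 0.05). Comparisons between the muscles used 1 fit over the muscle libraries, and those of cord with the muscles used 1 fit over all libraries. Log2 CPM carried a prior count of 2. Alternatives were DESeq2 1.42.0, limma 3.58.1 voom with quality weights, other scaling, no filter, fewer groups, each library left out, and, chosen after seeing the data, a red cell covariate and the removal of libraries that stand apart. Those libraries were 2.2, 3.1 and 6.1 in gastrocnemius, 3.1 and 6.1 in quadriceps, and 5.2 and 6.1 in cord. Red cell transcripts did not define this list: quadriceps 10-month library 2.3, where they summed to 521 CPM, was kept. All tools were tested on simulated data. Motif letters and promoter stretches came from RefSeq (GRCm38.p6), and exon overlaps from GENCODE on GRCm38. Motif letters were searched in 250 bases. Named genes were every called member, or the 5 with the smallest p where fewer than 5 were called, a fixed set of 12 members, and per comparison between tissues up to 5 called members in each direction. The members, lists and tests were chosen with earlier results of these data known. The values of one signal transducer on the pathway lists are not reported here, though it stays in the list counts.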

Additional observations from a re-analysis of the deposited data

Results flagged for a closer look

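In the 66 groups of 4 to 10 libraries tested for a library far from its group, over the 11 tested members of a set named for description by library, 7 had one, and chance alone marks about 5% of groups. Library 6.1 of sedentary 18-month mice was the high one for Rsad2 in gastrocnemius (12.3 CPM) and in cord (39.96 CPM). In the same library Isg20 and the red cell transcripts were high as well. At 10 months, library 3.1 was the low one for Usp18 in gastrocnemius (0.939 CPM) and in quadriceps (1.22 CPM), and for Ifit3 in quadriceps (1.83 CPM). In cord at 10 months, Cxcl10 was high in library 2.1 (1.72 CPM) and Oasl2 in library 1.3 (25.1 CPM).

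For 2 of 44 members, where 2.61% of all genes were called, the age effect differed between cord and muscles in the test of the difference itself: Cxcl10 by 1.53 and Ifi35 by 0.49 on the log2 scale (edgeR's quasi-likelihood test). Without the libraries that stand apart, Cxcl10 was called in that test and Ifi35 was not. The count was 4 with the replicate block and 5 by voom, with both members among them.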

How the results depend on the processing

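Among 167 named values, the direction and the side of the threshold were the same for 167 under RLE scaling, 158 under DESeq2, 152 with no filter, 143 under voom and 145 without the libraries that stand apart. Of the 153 within tissues, these were the same for 134 with only both compared groups and 133 with the red cell covariate. Counts of called members outside 1.5 times the main count were as follows. Cord with age: 7 with only both compared groups, 11 without libraries that stand apart, 10 with the covariate. Cord, exercised 18 against sedentary 10 months: 6 by DESeq2, 22 by voom, 8 with only both groups, 6 without libraries that stand apart. Gastrocnemius, same contrast: 3 with no filter, 10 by DESeq2, 3 with only both groups, 1 with the covariate. Gastrocnemius with age and with exercise: 1 each by voom, and 1 with exercise without libraries that stand apart. Quadriceps: with age 1 by DESeq2 and 3 by voom, with exercise 1 by voom. Level between muscles: 1 with no filter, 11 by voom, 9 without libraries that stand apart. Age, cord minus muscles: 5 by voom, 1 without libraries that stand apart. Members above in cord at 10 months: 31 by median TPM above both muscles, against 14 fitted, with the TPM share over all genes not counted. Exercise, cord minus muscles: 2 by DESeq2, 1 by voom, 1 without libraries that stand apart. Leaving out each library gave 8 to 24 in cord with age, 1 to 6 and 2 to 10 for exercised 18 against sedentary 10 months in cord and gastrocnemius.

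With the title's number as a replicate block, 9 members were called for the level between muscles, 4 for age in cord minus muscles and 1 for exercise in cord minus muscles. The main fits across tissues leave that number out, and gave 2, 2 and 0 in the same comparisons. Between the muscles, libraries of one number correlated above 0.1 in 29 of 31 pairs (lowest -0.17, median 0.27, highest 0.89). The own number was best in 21 of these. Muscle libraries of one number were thus alike in most pairs, and the main fit between the muscles treats them as independent. With cord, 12 of 33 gastrocnemius pairs and 11 of 31 quadriceps pairs were above 0.1, with the own number best in 4 and 3.

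Values near 0 changed sign. Ifitm3 with age: -0.039 in gastrocnemius (covariate), -0.031 (voom), -0.053 (without libraries that stand apart) and -0.0044 (covariate) in quadriceps. Rsad2 with age in quadriceps: -0.022 without libraries that stand apart. With exercise: Cxcl10 -0.13 and Bst2 -0.024 in gastrocnemius (voom), Cxcl10 0.070 in quadriceps (without libraries that stand apart), Ifi27l2a in cord 0.0042 (voom), 0.095 (without libraries that stand apart) and 0.0044 (covariate). Exercised 18 against sedentary 10 months in gastrocnemius: Cxcl10 -0.27 (voom) and -0.0083 (covariate), Ifi27l2a -0.10 (voom) and -0.0057 (covariate). Over the single libraries whose removal turned the sign, with age: Cxcl10 0.023, 0.034, 0.043 and 0.051 and Ifitm3 -0.035 to -0.0041 in gastrocnemius, and Ifit3 0.012, 0.015, 0.018, 0.039, 0.044 and 0.059, Rsad2 -0.020 and Ifitm3 -0.020 in quadriceps. With exercise: Cxcl10 -0.15 to -0.11, Oasl2 -0.059, -0.039, -0.027, -0.011, -0.0052 and -0.0024, and Bst2 -0.014, -0.011, -0.0098 and -0.0070 in gastrocnemius, Ifit1 -0.0023, Cxcl10 0.021 to 0.068 and Ifi27l2a 0.034 in quadriceps, Ifi27l2a 0.0034 to 0.023 in cord. Exercised 18 against sedentary 10 months in gastrocnemius: Cxcl10 -0.21 to -0.031 and Ifi27l2a -0.029. The cause was not tested. Single libraries were not left out in the fits across tissues.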

Other observations

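Libraries of the same title number were compared between tissues after their values had been seen, over deviations from the group mean of log2 CPM for 11 members and 3 pairs of tissues (33 relations, 100000 permutations each, Benjamini-Hochberg over the 33). The labels do not say that a number marks an animal. These relations were not computed for genes outside the members, and muscle libraries of one number were alike in most pairs over 14684 genes. Between gastrocnemius and quadriceps (n = 31), Rsad2 gave Pearson's r = 0.712 (permutation p = 0.00011, adjusted 0.00363) and Spearman's rho = 0.618 (adjusted 0.00445), with r = 0.546 after leaving out 6.1 and 8.3. Gbp2, a guanylate-binding GTPase, gave r = 0.672 (adjusted permutation p = 0.00379) and rho = 0.667 (adjusted 0.00445), with r = 0.552 without 2 libraries. Bst2 gave r = 0.528 (adjusted permutation p = 0.0296) and rho = 0.524 (adjusted 0.0449), with r = 0.654 without 2.

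For Ifit3 (r = 0.615, adjusted permutation p = 0.0126), Ifit1 (0.494, 0.0469) and Usp18 (0.594, 0.0481) Spearman's rho did not pass (adjusted permutation p = 0.054, 0.256 and 0.225), and r for Usp18 fell to 0.224 without 3.1 and 8.4. Between gastrocnemius and cord, Rsad2 gave r = 0.598 (adjusted permutation p = 0.0469) but rho = 0.39 (adjusted 0.172). No other relation had an adjusted permutation p under 0.05 for r.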
